A study of Mus musculus with 29 samples.

Results

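This comparison asked which RNAs change in the aortic arch of DNA repair-deficient mice when their food is restricted. It set 5 Ercc1 d/- mice on dietary restriction (DR) against 4 Ercc1 d/- mice with free access to food (ad libitum, AL), 9 of the 29 mice of the series, taken by their labels for genotype, age and diet and not by any measured value. All 9 were 22 weeks old, and they were F1 offspring of C57BL6J and FVB parents that carry 1 null and 1 truncated allele of Ercc1 in every tissue, so that an effect on the aorta cannot be separated from an effect on the rest of the body. Restricted mice received 10% less of the AIN93G pellets from 7 weeks of age, 20% less a week later and 30% less from 9 weeks on, and every mouse lived alone in its cage. The pellets were given shortly before the dark phase. The AL group held 2 females (samples 004 and 005) and 2 males (013 and 026), and the DR group held 2 females (014 and 022) and 3 males (006, 016 and 029). Set beside them were 9 WT littermates of the same age and F1 background, 4 on AL (3 males and 1 female) and 5 on DR (3 males and 2 females). A further 5 Ercc1 d/- mice (3 males and 2 females) were killed at 6 weeks, before any restriction began.

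ERCC1 is part of the nuclease that cuts damaged DNA out in nucleotide excision repair and also acts in the repair of crosslinks. When it is short, lesions remain that block transcription and replication, and mice with little ERCC1 show many signs of old age early in life, stiffened and inflamed arteries among them. The wall of the aorta consists mostly of smooth muscle cells between elastic sheets, with an inner lining of endothelium and an outer coat, the adventitia, in which fibroblasts, macrophages and fat lie. Restricted feeding lowers insulin and growth factor signalling and moves tissues towards the use of fat and ketone bodies, and it is known to delay ageing in many animals.

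RNA was sequenced as 1 library per mouse, and reads were counted per gene after duplicates had been removed by their unique molecular identifiers. Counts on genes totalled 1294980 to 3855444 in the AL samples and 921167 to 2572523 in the DR samples (two-sided exact permutation test of the mean, p = 0.278). Levels are given as normalised counts, which are counts divided by the TMM-scaled library size and multiplied by 3683502, the mean library size of the 28 samples used. They can be compared between samples but not between genes of different length. Lists of values give the females first, in the order 004, 005, 013 and 026 for AL and 014, 022, 006, 016 and 029 for DR. Ercc1 itself read 54.1, 54.6, 69.8 and 57.2 on AL and 78.7, 64.1, 28.2, 36 and 78.1 on DR, below the 4 WT AL samples with 115 ± 8.66 (SD), and did not differ between the diets (log2 fold change 0.01, adjusted p = 0.995). In all 9 samples the counts of Xist and of 4 Y chromosome genes matched the labelled sex. Smooth muscle markers were detected in every sample, and their summed level was 73060 to 111100 on AL and 100200 to 109400 on DR. Some libraries stood apart in the markers of other tissues. Sample 016 (DR) had a summed level of 2471 for macrophages of the serous cavities and of 136.7 for B cells, against at most 893.3 and 87.1 in the other 8. Sample 013 (AL) held 887.3 of skeletal muscle markers against at most 26.39 elsewhere, and samples 013 and 006 held 3309 and 3247 of red cell markers against at most 556.9. Their part in the results was not tested, and the number of changed genes is given with and without these libraries. For 24 of the 118 genes followed by name, another annotated gene with at least 10% of their counts overlaps their span, among them Ercc1, Tmem176a, Tmem176b, H2-Eb1, H2-Aa, Ctsz, Efemp2, Plin4, Mtus1, Myom1, Gm12098, Avil, Pde4d, Fdft1, Chd2, Eif5b, Irf7, Plvap, Col6a6, Gbp4 and Nlrc5, and reads of such pairs may be shared.

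A gene was called a differentially expressed gene (DEG) at an adjusted p of at most 0.05 and a change of at least 1.2-fold in edgeR's quasi-likelihood test, fitted with terms for group and sex, over 12353 tested genes. Adjusted p-values below are from this fit. In the Ercc1 d/- aortic arch 203 genes passed, of which 80 were higher on DR (0.648% of the tested genes) and 123 were lower (0.996%). The changes were moderate, with a median of 0.55 on the log2 scale among the raised and -0.61 among the lowered DEGs. Only 8 raised and 25 lowered DEGs changed by more than 2-fold. Across all tested genes 6175 log2 fold changes were positive and 6178 negative, with a median of -3.63e-05, the background for the lists below. In the plot of change against level, DEGs of either direction occur among scarce and abundant RNAs, but the DEGs were more abundant than the tested genes in general. The median level over the 28 samples was 342 for raised DEGs, 228 for lowered DEGs and 108 for all tested genes.

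**Figure D1:**
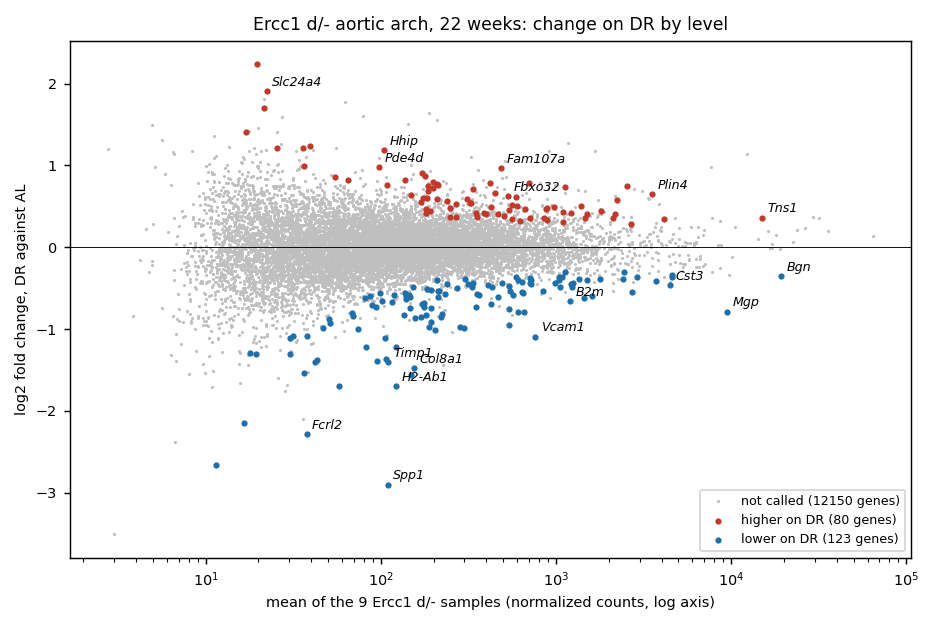
Log2 fold change of DR against AL in the Ercc1 d/- aortic arch at 22 weeks (vertical axis) against the mean level of the 9 samples in normalised counts (horizontal log axis), with 1 point per tested gene. The 80 genes higher on DR are red, the 123 lower ones are blue, and Spp1 is the lowest blue point at -2.90.

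The groups did not overlap in 60 of the 80 raised DEGs, that is, every DR sample lay above every AL sample, and in 103 of the 123 lowered DEGs every DR sample lay below every AL sample. The same complete separation occurred in 2.00% of all tested genes upwards and in 3.02% downwards. All 203 DEGs had the same sign of change in males and in females when these were fitted as separate groups, as did 6734 of the 12353 tested genes. The DEGs were called in these same mice, which favours such agreement in advance. Within males 141 genes passed, 64 of them among the 203, and within females 45 passed, 23 of them among the 203. No gene differed in its response between the sexes in edgeR's test of the interaction, although 1193 genes had an unadjusted p under 0.05, and DESeq2 called 19. The total of 203 depended on single mice. It fell to 78 without sample 026, 93 without 004, 103 without 029, 112 without 014 and 116 without 005, and it was 199 without 006, 152 without 013, 204 without 016, and 228 without 013 and 016 together, of which 129 were among the 203.

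The gene with the smallest p also had the largest decrease of the DEGs. Spp1 (chr5:104582165-104589235, GRCm39), which encodes osteopontin, a secreted matrix protein made by activated macrophages and dedifferentiated smooth muscle cells, read 252, 143, 201 and 234 on AL and 23.6, 12.3, 44.7, 45.6 and 26.7 on DR. Every AL mouse stood far above every DR mouse, and the change was 7.46-fold (log2 fold change -2.90, SE 0.27, adjusted p = 1.09e-06). Several further genes of the extracellular matrix and its turnover were among the 15 lowered genes with the smallest p. Col8a1, a short-chain collagen that vascular cells make during remodelling, read 226, 248, 232 and 249 against 70.8, 66.8, 113, 103 and 87.6 (log2 fold change -1.48, SE 0.17, adjusted p = 1.8e-05). Here too the diets were fully apart, and the AL values lay close together. Mgp, the matrix protein that holds back calcification of the arterial wall, read 11820, 10600, 13540 and 13240 on AL and 7069, 6741, 7676, 8826 and 5346 on DR (log2 fold change -0.79, SE 0.10, adjusted p = 0.000195). In RNA from a whole tissue, fewer cells of a type and less RNA per cell cannot be told apart.

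Among 14 tested metalloproteases and tissue inhibitors of metalloproteases, 4 fell, none rose and 3 log2 fold changes were positive. Mmp3, or stromelysin 1, which degrades proteoglycans and activates other metalloproteases, read 149.7, 141, 201 and 149 on AL and 66.9, 54.5, 91.8, 50.4 and 55.2 on DR (log2 fold change -1.36, SE 0.22, adjusted p = 0.00143). Timp1, an inhibitor of these enzymes, read 162, 114, 181 and 222 against 39.4, 65.5, 80.01, 91.2 and 36.2 (log2 fold change -1.41, SE 0.21, adjusted p = 0.00109). Protease and inhibitor thus both fell, and for both the lowest AL sample lay above the highest DR sample. The other lowered members were Timp2 (log2 fold change -0.34, adjusted p = 0.0349) and Mmp23 (log2 fold change -0.45, adjusted p = 0.0358), which changed less. Their calls did not withstand the omission of single mice, for Timp2 without 005, 013, 014, 026 or 029, adjusted p up to 0.0964, and for Mmp23 without 005, 006, 013, 014, 016, 026 or 029, adjusted p up to 0.0921.

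Genes of elastic fibres and collagen were touched in places. Of 21 tested elastic fibre genes 2 fell, Efemp2 (fibulin 4, needed to assemble elastic fibres) with log2 fold change -0.49, adjusted p = 0.0103 and Loxl1, which crosslinks elastin, with log2 fold change -0.49, adjusted p = 0.0224 (call lost without 013, 014, 026 or 029, adjusted p up to 0.085). Pcolce, which helps to trim procollagen, was the DEG among 20 collagen processing genes (log2 fold change -0.58, adjusted p = 0.00809), and 18 of these 20 had a negative log2 fold change with a median of -0.19. None of the 8 fibrillar collagens passed. Col1a1 read 4221, 5250, 5935 and 5425 on AL and 4491, 5121, 3240, 3433 and 3092 on DR (log2 fold change -0.43, adjusted p = 0.0976), so that the groups overlapped. On the list of 25 tested matricellular proteins and proteoglycans the DEGs were Mgp and Bgn, both lowered. Spp1, the secreted matrix protein given above, was not on this list but on that of phagocytic and foam macrophages. Biglycan, the product of Bgn, is a small proteoglycan of the arterial wall, and its RNA ranged from 21340 to 23890 on AL and from 15070 to 19030 on DR (log2 fold change -0.35, adjusted p = 0.0393). Its call was lost without 004, 005, 013, 014, 026 or 029, adjusted p up to 0.127.

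**Figure D2:**
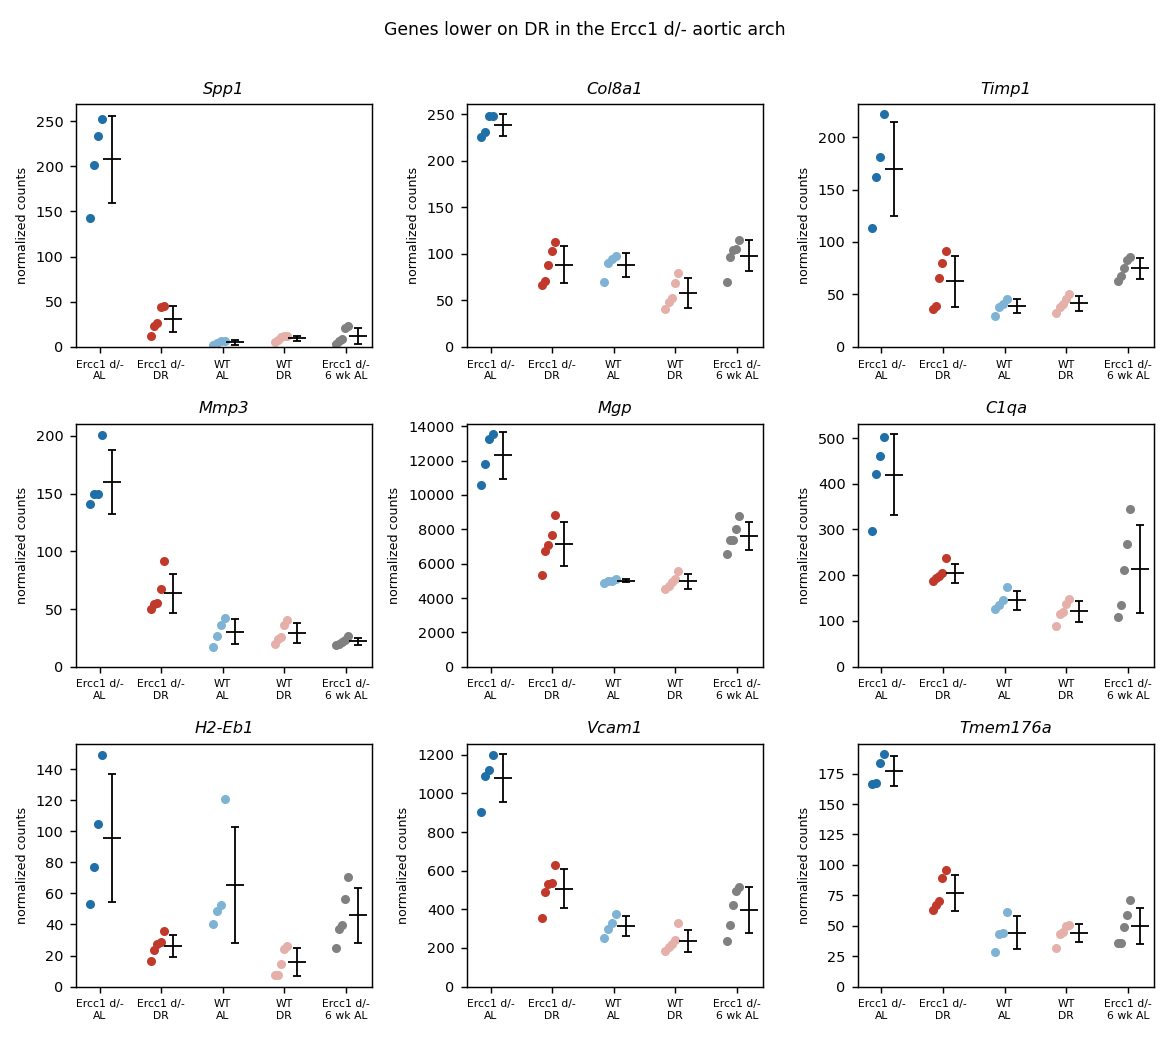
Normalised counts of 9 genes lower on DR in the Ercc1 d/- aortic arch, 1 point per mouse, with mean and SD (bar) in 5 groups: Ercc1 d/- AL and DR, WT AL and DR at 22 weeks, and Ercc1 d/- AL at 6 weeks. In each of the 9 panels all 5 DR samples of Ercc1 d/- mice lie below all 4 AL samples of the same genotype and age.

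Genes of macrophages and of the first step of complement were also lower on DR. The 3 chains of C1q, which start the classical complement cascade and in tissues are made mainly by macrophages, all fell. C1qa read 461, 502, 296 and 421 on AL and 205, 239, 193, 187 and 198 on DR (log2 fold change -0.99, SE 0.13, adjusted p = 0.000137). C1qb was 309.7 to 499 on AL and 162 to 240.1 on DR (log2 fold change -0.98, adjusted p = 0.00119), and C1qc was 179 to 329.9 and 94.1 to 168 (log2 fold change -0.92, adjusted p = 0.0084). The 3 genes lie within a short stretch of chromosome 4 (chr4:136606009-136613511, chr4:136616466-136620376 and chr4:136623223-136626161), and for each of them no DR sample reached an AL sample. The other 11 of the 14 tested complement genes were not DEGs. Since the 3 C1q genes moved together, the 250 bases before their annotated starts are shown, 5' to 3' on the strand of the gene, from the GRCm39 reference with capitals for GAGGAA on either strand (TTCCTC on the other), the core of the sequence that the macrophage factor PU.1 binds.
C1qa: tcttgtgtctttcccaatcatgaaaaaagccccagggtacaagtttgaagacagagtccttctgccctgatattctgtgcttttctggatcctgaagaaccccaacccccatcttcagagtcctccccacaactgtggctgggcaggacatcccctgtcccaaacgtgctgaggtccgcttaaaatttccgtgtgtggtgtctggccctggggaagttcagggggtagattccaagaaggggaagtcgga
C1qb: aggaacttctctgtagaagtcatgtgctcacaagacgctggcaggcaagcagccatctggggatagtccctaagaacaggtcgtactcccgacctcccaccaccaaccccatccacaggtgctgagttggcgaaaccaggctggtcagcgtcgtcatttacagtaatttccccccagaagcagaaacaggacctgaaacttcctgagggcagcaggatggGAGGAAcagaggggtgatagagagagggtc
C1qc: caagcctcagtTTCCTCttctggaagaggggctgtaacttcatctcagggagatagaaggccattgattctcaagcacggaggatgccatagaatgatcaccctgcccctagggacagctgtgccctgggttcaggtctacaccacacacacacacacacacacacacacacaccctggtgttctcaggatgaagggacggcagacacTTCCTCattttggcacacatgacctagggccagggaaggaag
These stretches are chr4:136626162-136626411, chr4:136613512-136613761 and chr4:136620377-136620626, all on the minus strand. The 6 letters occurred 0 times before C1qa, at 30 bases before the start of C1qb and at 239 and 42 bases before that of C1qc, and 22.8% of the 12326 promoters read in the same way held them. Among the DEGs they were found in 26% of the lowered and 27.5% of the raised. Other short motifs were searched as well and are not shown. Such a match is a run of letters and not a shown binding site.

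Of 26 tested genes of phagocytic and foam macrophages 5 fell and none rose, with a median log2 fold change of -0.28. Besides Spp1 they were Cd68, a protein of macrophage lysosomes, Gpnmb, which is high in lipid-laden macrophages, Fcer1g, the signalling chain of Fc receptors, and Lgals3, which encodes galectin 3. Cd68 read 139, 187, 78.1 and 82.1 on AL and 35.4, 61.4, 54.1, 72 and 28.6 on DR (log2 fold change -1.22, SE 0.24, adjusted p = 0.00962), and Lgals3 read 270.5, 179, 195 and 256 against 90.5, 110.5, 151, 110.4 and 172 (log2 fold change -0.85, SE 0.18, adjusted p = 0.013). In both genes the lowest AL value stood only a little above the highest DR value. Their calls were lost on leaving out single mice, for Cd68 without 005, adjusted p = 0.0549, for Lgals3 without 004 or 026, adjusted p up to 0.0719, for Gpnmb without 004, 022 or 026, adjusted p up to 0.0707, and for Fcer1g without 004, 005, 006, 014, 022, 026 or 029, adjusted p up to 0.123. Among 12 genes of resident perivascular macrophages Mrc1, F13a1 and Gas6 fell, with log2 fold changes of -1.01, -0.73 and -0.41. Mrc1, the mannose receptor, was called in 10 of 19 alternative settings (lost without 004, 005, 014, 016, 022, 026 or 029, adjusted p up to 0.0899), and Gas6, a bridge between dying cells and their receptors on phagocytes, in 13 (lost without 005, 013, 014 or 029, adjusted p up to 0.101).

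Some further lowered genes with small p-values stood on none of these lists, and RNA from a whole tissue does not show which cells made them. Fcrl2, an Fc receptor-like gene, read 80.3, 106, 41.9 and 44.8 on AL and 15.7, 23.2, 11.8, 12 and 3.81 on DR (log2 fold change -2.29, SE 0.29, adjusted p = 0.000137). Lcp1, an actin-bundling protein of leukocytes, had a log2 fold change of -1.39 and the transcription factor gene Irf8, which myeloid cells and B cells need, one of -2.15 (0.0015 and 0.0084 as adjusted p). Tmem176a read 184, 191, 167 and 167 on AL and 66.9, 62.7, 89.4, 96 and 70.5 on DR (log2 fold change -1.22, SE 0.18, adjusted p = 0.00109), and its neighbour Tmem176b was also lower (log2 fold change -0.85, adjusted p = 0.00127). These 2 genes overlap on opposite strands, and whether the counting used the strand is not given in the sources used here, so their reads cannot be fully told apart.

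Other macrophage genes did not pass. Of 9 tested markers of macrophages as a cell type Cd68, Mrc1 and the 3 C1q chains fell. The defining receptor genes Csf1r, Adgre1, Mertk and Itgam had log2 fold changes of -0.42, 0.17, 0.34 and 0.72 and did not pass (0.588, 0.952, 0.159 and 0.69 as adjusted p). The summed level of 10 macrophage markers was 1691 to 2843 on AL and 1318 to 1404 on DR in all but sample 016, which reached 2339 and also carried the markers of serous cavity macrophages.

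Genes of antigen presentation fell as well. MHC class II molecules show peptides to helper T cells and are made by dendritic cells, B cells and activated macrophages. H2-Eb1 read 105, 149, 53 and 77.1 on AL and 23.6, 27.3, 16.5, 36 and 28.6 on DR (log2 fold change -1.70, SE 0.27, adjusted p = 0.00127), and H2-Ab1 read 239.9, 338, 100.5 and 149 against 39.4, 70.9, 47.1, 69.6 and 45.7 (log2 fold change -1.70, SE 0.32, adjusted p = 0.0125). The females of the AL group were the highest of the 9 mice in both genes, and the AL males still lay above every DR mouse. H2-Aa, with a log2 fold change of -1.56, just passed (adjusted p = 0.0497), and it lost its call in 15 of 19 alternatives. H2-Ab1 lost its call without the sex term (adjusted p = 0.0808) and H2-Eb1 after thinning to equal depth (adjusted p = 0.0914). Of the 9 tested class II genes 8 had a negative log2 fold change, with a median of -1.44, and in 6 the groups did not overlap. Cd74, the invariant chain, was 428, 587, 229 and 212 on AL and 90.5, 125.5, 58.8, 209 and 87.6 on DR, and did not pass (adjusted p = 0.0909). B cell markers summed to 55.69 to 87.1 on AL and 3.936 to 23.53 on DR without sample 016, in which they reached 136.7, and their part in the class II values was not tested. The 250 bases before the starts of the 3 lowered class II genes are shown with capitals for ATTGG or, where the other strand carries it, CCAAT, the core of the Y box that class II promoters share.
H2-Aa: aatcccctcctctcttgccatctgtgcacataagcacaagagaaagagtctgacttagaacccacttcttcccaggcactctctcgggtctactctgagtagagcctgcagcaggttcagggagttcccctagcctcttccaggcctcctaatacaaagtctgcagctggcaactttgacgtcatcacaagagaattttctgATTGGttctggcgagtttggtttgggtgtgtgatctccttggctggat
H2-Ab1: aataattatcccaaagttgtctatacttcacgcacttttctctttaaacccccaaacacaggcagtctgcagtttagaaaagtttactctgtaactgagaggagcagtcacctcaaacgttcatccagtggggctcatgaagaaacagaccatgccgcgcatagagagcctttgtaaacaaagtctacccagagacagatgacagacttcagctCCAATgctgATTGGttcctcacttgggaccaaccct
H2-Eb1: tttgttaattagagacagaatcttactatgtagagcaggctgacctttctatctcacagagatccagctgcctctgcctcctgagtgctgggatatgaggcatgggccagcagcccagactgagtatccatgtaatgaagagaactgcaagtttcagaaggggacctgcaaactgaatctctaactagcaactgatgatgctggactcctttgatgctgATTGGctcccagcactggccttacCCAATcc
They span chr17:34506798-34507047 on the minus strand, and chr17:34481933-34482182 and chr17:34524563-34524812 on the plus strand of GRCm39. The 5 letters lay 48 bases before H2-Aa, 36 and 27 before H2-Ab1, and 31 and 7 before H2-Eb1, and 35.3% of the 12326 promoters held them. Among the DEGs they were found in 38.2% of the lowered and 43.8% of the raised. Here too a match is a run of letters and not a shown binding site.

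MHC class I, which shows peptides from inside each cell to killer T cells, had smaller log2 fold changes. B2m, the chain common to all class I molecules, read 1780, 1725, 1178 and 1456 on AL and 842, 1043, 1080, 883 and 849.8 on DR (log2 fold change -0.66, SE 0.10, adjusted p = 0.00127). H2-K1 fell with a log2 fold change of -0.48 (call lost without 004, 005, 006, 013, 014, 022 or 026, adjusted p up to 0.0913), and 12 of 13 genes of class I and the immunoproteasome had a negative log2 fold change, with a median of -0.31. Reads of class I and class II genes can be shared between related copies in this region. None of the 22 tested genes on the list of type I interferon-stimulated genes was a DEG, while Ifitm3, outside the list and given at the end, was a lowered DEG. All 22 log2 fold changes of the list were negative, with a median of -0.48. The strongest was that of Irf7, a transcription factor of the interferon response, at 124, 179.7, 145 and 142 on AL and 70.8, 131, 40, 59.97 and 38.1 on DR (log2 fold change -0.96, adjusted p = 0.143), where sample 022 on DR overlapped the AL range. Irf7 passed with DESeq2 (log2 fold change -1.11, adjusted p = 0.0393) and with edgeR after thinning to equal depth (adjusted p = 0.0388). Among 12 genes that sense nucleic acids in the cytosol none passed and 6 were positive. Sting1 read 27.9 to 49.8 on AL and 17.1 to 31.5 on DR (log2 fold change -0.64, adjusted p = 0.337).

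Of 13 tested genes for leukocyte adhesion and chemokines 3 fell. Vcam1, the vascular cell adhesion molecule that holds leukocytes to the endothelium and is also made by smooth muscle cells under stress, read 1090, 1122, 904 and 1199 on AL and 535, 487, 631, 530.2 and 354 on DR (log2 fold change -1.09, SE 0.17, adjusted p = 0.00484). Cx3cl1, or fractalkine, a chemokine anchored in the cell membrane, read 128, 145, 123 and 212 against 66.9, 77.7, 56.5, 74.4 and 64.8 (log2 fold change -1.11, SE 0.18, adjusted p = 0.00163). For both genes the lowest AL sample was well above the highest DR sample, while the summed endothelial markers were 3008 to 4914 on AL and 3965 to 6393 on DR. Cxcl12, which attracts leukocytes and progenitor cells, fell with a log2 fold change of -0.45 and was called in 9 of 19 alternatives (lost without 004, 005, 006, 016, 026 or 029, adjusted p up to 0.16).

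Among lysosomal and antioxidant genes the DEGs were lower by small steps. In the lysosome list 26 of 29 genes had a negative log2 fold change, with a median of -0.24, and Ctsc, Ctsz, Hexa and Lamp1 were DEGs. The dipeptidyl peptidase gene Ctsc read 219, 267, 192 and 234 on AL and 134, 162, 98.8, 151 and 132 on DR (log2 fold change -0.73, SE 0.13, adjusted p = 0.00607), and Hexa, a subunit of the enzyme that degrades gangliosides, read 819, 803, 773 and 744 against 606, 536, 492, 609 and 412 (log2 fold change -0.56, SE 0.11, adjusted p = 0.0084). In each of them every DR sample lay below every AL sample. The call of Lamp1 was lost without 004, 005, 013, 014, 022, 026 or 029, adjusted p up to 0.127, and in 13 of 19 alternatives in all. Of 28 NRF2 targets and antioxidant enzymes Prdx1, Srxn1 and Gpx1 fell, with log2 fold changes of -0.43, -0.53 and -0.36, while 10 of the 28 were positive. Peroxiredoxin 1 removes peroxides, sulfiredoxin restores it after oxidation, and Gpx1 encodes the main cellular glutathione peroxidase. Their calls were lost for Prdx1 without 004 or 026, adjusted p up to 0.0522, for Srxn1 without 004 or 026, adjusted p up to 0.0773, and for Gpx1 without 004, 026 or 029, adjusted p up to 0.0576. In the list of 20 chaperones and stress genes of the endoplasmic reticulum 19 were negative, with a median of -0.22, and none passed.

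Few genes of the damage response and of growth were DEGs. The 27 tested p53 targets ranged from -1.17 to 1.06 in log2 fold change, with a median of -0.115 and with 5 of 27 fully separated downwards. Of these 27 Phlda3 and Psrc1 fell (-0.58 and -0.99), with calls that were lost for Phlda3 without 004, 005, 006, 013, 014, 016, 022 or 026, adjusted p up to 0.116, and for Psrc1 without 004, 005, 006, 013, 016, 026 or 029, adjusted p up to 0.114. Cdkn1a, which encodes the cell cycle inhibitor p21, was 665, 742, 709 and 567 on AL and 653, 578, 699, 813 and 814 on DR, fully overlapping (log2 fold change 0.10, adjusted p = 0.843). Mcm5, a subunit of the replicative helicase, was the DEG among 17 tested genes of proliferation (55, 69.3, 64.2 and 94.6 on AL, 35.4, 39.5, 28.2, 43.2 and 34.3 on DR, log2 fold change -0.92, adjusted p = 0.0418), and its call was lost without 005, 006, 013, 014, 026 or 029, adjusted p up to 0.141. Nupr1, a stress-induced nuclear protein, fell (1518 to 2305 on AL, 989 to 1436 on DR, log2 fold change -0.62, adjusted p = 0.00452). Frzb, a secreted inhibitor of Wnt signals, fell with a log2 fold change of -0.79 and was the DEG among 30 genes of the TGF-beta, Wnt and Notch pathways. Cst3, the secreted inhibitor of cathepsins cystatin C, read 5170, 4615, 5971 and 5368 on AL and 4129, 3693, 3991, 4119 and 3197 on DR (log2 fold change -0.46, SE 0.09, adjusted p = 0.00809). The tubulin genes Tubb4b, Tuba1b and Tuba1c, picked with their values in view, fell with log2 fold changes of -0.54, -0.57 and -0.68. Other tubulin genes were not followed by name, and reads can be shared between such close relatives. Tuba1b lost its call without 004, 014, 026 or 029, adjusted p up to 0.101.

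Genes of fuel use were examined among the raised ones, since restriction moves tissues towards fat. Of 25 tested genes of fasting and fatty acid oxidation 22 had a positive log2 fold change, with a median of 0.42. Pdk4, which spares glucose by shutting pyruvate dehydrogenase, read 917, 796, 282 and 383 on AL and 921, 969.6, 1042, 1171 and 1772 on DR. All DR samples were above all AL samples, but the AL males were far below the AL females, and the gene did not pass (log2 fold change 1.17, adjusted p = 0.202).

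Fat and nutrient genes rose in a few cases. Plin4, a coat protein of lipid droplets, read 2401, 2904, 2916 and 2481 on AL and 3928, 3261, 3513, 5321 and 5106 on DR (log2 fold change 0.65, SE 0.12, adjusted p = 0.00632). Fbxo32, or atrogin 1, the ubiquitin ligase that FOXO factors switch on when growth signals fall, read 399, 431, 432 and 351 against 567, 513, 762, 676 and 676 (log2 fold change 0.63, SE 0.10, adjusted p = 0.00176). Both were fully separated between the diets. Tsc1, a brake on the nutrient sensor mTORC1, read 119.9, 129, 187 and 129 on AL and 212, 218, 219, 216 and 236 on DR (log2 fold change 0.69, SE 0.14, adjusted p = 0.00881). The DR mice were almost level, and the AL male 013 was closest to them, while the call was lost without 004, adjusted p = 0.0522. Fdft1, the squalene synthase that commits the pathway to sterols, rose by 0.75 on the log2 scale (call lost without 004, 005, 006, 013, 016, 026 or 029, adjusted p up to 0.0906), while 16 of the 22 tested genes of cholesterol synthesis and uptake were negative and 15 of the 19 tested lipogenic genes were positive. The DEG of the lipogenic list was lower on DR, Scd2, a stearoyl-CoA desaturase (log2 fold change -0.49, adjusted p = 0.026, call lost without 004, 006, 013, 026 or 029, adjusted p up to 0.0962). White fat markers summed to 3307 to 9989 on AL and to 4052 to 10100 on DR, so that the ranges of the diets overlapped widely. Lep, the fat hormone leptin, read 9.02, 3.15, 0 and 12.4 on AL and 0, 0, 2.35, 0 and 0 on DR and did not pass (log2 fold change -3.50, adjusted p = 0.188).

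The list of glucocorticoid-responsive genes gave no DEG in edgeR's test, while Fam107a, outside the list and given below, was a raised DEG. Of 17 tested list members, 15 log2 fold changes were positive with a median of 0.49. Zbtb16, a transcription factor that glucocorticoids induce strongly, read 638, 922, 806 and 212 on AL and 1307, 1246, 1720, 1907 and 1751 on DR and just missed the threshold (log2 fold change 1.27, adjusted p = 0.0797), whereas Fkbp5, a chaperone of the receptor, read 640.3, 890, 765 and 488 against 807, 830.5, 1461, 1694 and 1303 with overlap (log2 fold change 0.76, adjusted p = 0.17). DESeq2 called both (adjusted p = 0.00867 and 0.0291), and it also called Hif3a, a hypoxia-inducible factor subunit that glucocorticoids induce (edgeR log2 fold change 1.78, adjusted p = 0.0722, DESeq2 adjusted p = 0.0028). All 20 citric acid cycle genes were positive (median 0.27) and so were 51 of 62 nuclear respiratory chain genes (median 0.18), and none of them passed. Brown fat, a tissue rich in mitochondria, moved with them, as 9 of its 10 markers had a positive log2 fold change with a median of 0.49, and none was at 0 in all 9 samples. The brown fat markers summed to 1275 to 7193 on AL and to 1996 to 6722 on DR, and their part in these lists and in that of fasting and fatty acid oxidation was not tested. Clock genes, which depend on the hour of death and on feeding, gave no DEG among 20. Dbp, a strongly cycling clock output gene, ranged over 73 to 389 within the DR group alone.

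**Figure D3:**
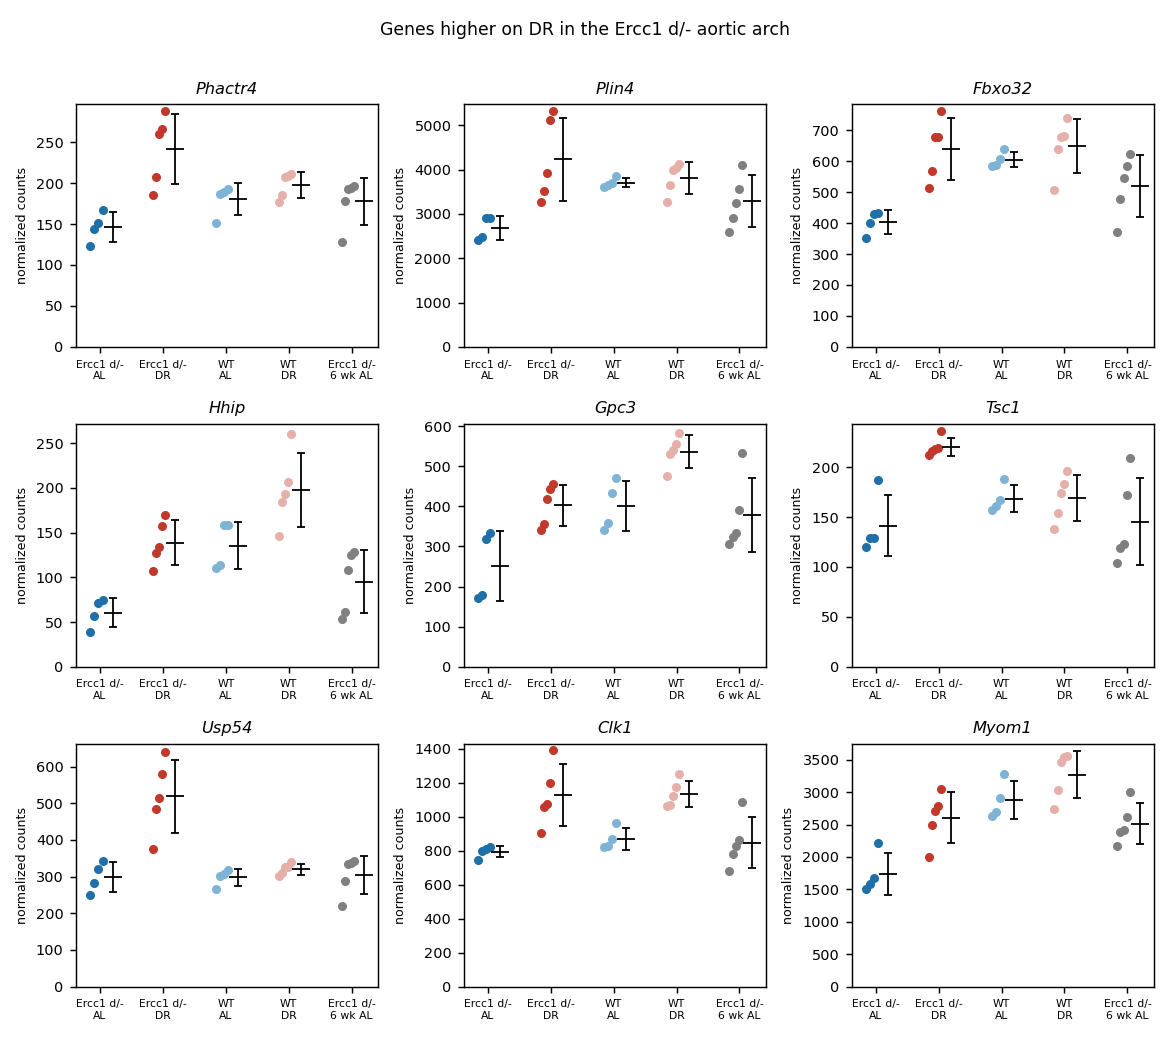
Normalised counts of 9 genes higher on DR in the Ercc1 d/- aortic arch, 1 point per mouse, with mean and SD (bar) in the same 5 groups as in the panels of lowered genes. In 8 of the 9 panels all DR samples of Ercc1 d/- mice lie above all AL samples at 22 weeks, the exception being Myom1, where the DR female 022 lay below the AL male 013.

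Growth factor and signalling genes among the 15 raised DEGs with the smallest p included Hhip, Gab2, Gpc3 and Dapk1. Hhip, a membrane protein that binds and blocks Hedgehog ligands, read 71.2, 74.6, 39.1 and 57.2 on AL and 157, 134, 169, 127 and 106.7 on DR (log2 fold change 1.19, SE 0.18, adjusted p = 0.00119). Gpc3, a glypican that holds growth factors at the cell surface, read 318, 334, 179 and 172 on AL and 417, 443, 341, 355 and 455 on DR (log2 fold change 0.71, SE 0.14, adjusted p = 0.0084). In Gpc3 the AL males were far below the AL females, which nearly reached the DR mice. Gab2, an adaptor below growth factor receptors, rose by 0.61 on the log2 scale and Dapk1, a death-associated kinase, by 0.90 (0.00629 and 0.00937 as adjusted p). Usp54, a relative of the deubiquitinating enzymes, read 249, 322, 343 and 281 on AL and 484, 376, 513, 640.5 and 581 on DR (log2 fold change 0.78, SE 0.12, adjusted p = 0.00109), and Garre1 rose by 0.76 on the log2 scale (0.00581 as adjusted p).

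Some cytoskeletal genes were among the raised DEGs, a grouping made after the values were seen, while the 3 tubulin genes above were lowered. Phactr4, which binds actin and protein phosphatase 1, read 144, 123, 151 and 167 on AL and 259.8, 186, 207, 266 and 288 on DR (log2 fold change 0.72, SE 0.14, adjusted p = 0.00809). Mtus1, a microtubule-associated protein, rose by 0.46 on the log2 scale and Cgnl1, which links cell junctions to the cytoskeleton, by 0.74 (0.0084 and 0.0084 as adjusted p). Of 30 genes of smooth muscle contraction Ppp1r12a, the targeting subunit of myosin phosphatase, and Synpo2, an actin-binding protein, rose with log2 fold changes of 0.36 and 0.51, with 23 of the 30 positive. Their calls were lost for Ppp1r12a without 004, 005, 022 or 026, adjusted p up to 0.0939, and for Synpo2 without 004, adjusted p = 0.0773. The main contractile genes did not pass. Acta2, smooth muscle actin, read 17730, 19360, 25740 and 24430 on AL and 21860, 21090, 27220, 22480 and 21860 on DR (log2 fold change 0.07, adjusted p = 0.835), and Myh11, smooth muscle myosin, read 19430, 22930, 33180 and 34750 against 34800, 34230, 30950, 37680 and 37390 (log2 fold change 0.35, adjusted p = 0.164). In the AL group the males were higher than the females in both. Myom1, a muscle protein that crosslinks myosin, rose by 0.58 on the log2 scale and lost its call without 026, adjusted p = 0.0517. Cardiac muscle markers summed to 791.3 to 1423 on AL and to 952.4 to 2283 on DR, with overlap. Of 7 tested cardiac markers 6 had a positive log2 fold change, and none passed. Their part in the Myom1 values was not tested.

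Some of the raised DEGs with the largest changes were scarce transcripts. Slc24a4, a sodium, calcium and potassium exchanger, read 6.31, 8.41, 5.58 and 12.4 on AL and 43.3, 25.9, 21.2, 55.2 and 22.9 on DR (log2 fold change 1.91, SE 0.44, adjusted p = 0.0244). Pde4d, which breaks down cyclic AMP, read 75.8, 66.2, 67 and 47.3 against 173, 96.8, 148, 81.6 and 120 (log2 fold change 0.98, SE 0.21, adjusted p = 0.0183). Every DR mouse lay above every AL mouse in both. The gene model Gm12098 rose by 2.24 on the log2 scale, but 1 DR female, 014, was far above all others (6.31, 5.25, 2.79 and 9.95 on AL, 78.7, 20.5, 14.1, 19.2 and 21 on DR), and the call was lost without 004, 005, 013 or 014, adjusted p up to 0.093. Slc24a4 and Pde4d lost theirs without 004, 005, 013, 014, 016 or 026, adjusted p up to 0.0883, and without 004, 005, 014, 026 or 029, adjusted p up to 0.069. Fam107a, an actin-associated gene that glucocorticoids induce, read 289.5, 412, 251 and 289 on AL and 504, 509, 605, 832 and 692 on DR (log2 fold change 0.96, SE 0.18, adjusted p = 0.0131), and its call was lost without 004 or 026, adjusted p up to 0.0591.

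Some genes for RNA processing, chromatin and translation appeared among the raised DEGs, a grouping made after the values were seen. How many such genes were tested was not counted. Clk1, a kinase of splicing factors, read 809.8, 799.6, 820.4 and 744 on AL and 1071, 1054, 1391, 904 and 1200 on DR (log2 fold change 0.49, SE 0.10, adjusted p = 0.0084). Prpf38b, a splicing factor, read 483, 474, 441 and 557 against 759.6, 685, 649.5, 624 and 737 (log2 fold change 0.51, SE 0.10, adjusted p = 0.0103). For both the diets were apart in all samples, though Clk1 lost its call without 026, adjusted p = 0.0504. The histone methyltransferase gene Setd2 rose by 0.37 on the log2 scale, the remodeller gene Chd2 by 0.59, the translation initiation factor genes Eif3a and Eif5b by 0.40 and 0.42, and the nucleolar gene Ncl by 0.36. Setd2 was called in 6 of 19 alternatives, Chd2 in 12, Eif3a in 11, and Eif5b and Ncl in 10 each. Of 75 tested genes on the list of cytosolic ribosomal proteins none passed. Their log2 fold changes were positive in 31 and negative in 44, with a median of -0.0166.

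The raised genes were long. Their median gene-body length was 64.9 kb, against 14.2 kb for the lowered DEGs and 25.9 kb for all tested genes, and 19 of the raised DEGs but 7 of the lowered ones fell in the longest 10% of the genes. The shortest 10%, with a median of 2.74 kb, held 1 raised and 22 lowered DEGs. Over all 12343 genes with a length, the log2 fold change on DR rose slightly with length (Spearman's rho across genes 0.122, where genes are not independent replicates), with 46.5% positive values in the shortest and 59.3% in the longest 10%. In WT mice the same value was -0.0208. Exon length gave 0.135 and -0.00122. The rho ran from 0.0858 without sample 013 to 0.163 without 005, and was 0.0682 without 006, 013 and 016 together. A pair of library measures stands beside this trend. Reads outside annotated genes made up 7.843% to 9.433% of the reads counted on AL and 9.337% to 10.08% on DR (two-sided exact permutation test of the mean, p = 0.0238, where 0.00794 is the smallest that 4 against 5 samples allow). This was the smallest p of several library measures tested in this way, without correction for their number. The others were total counts (0.278), detected genes (0.317) and the shares of ambiguous (0.254), not uniquely aligned (0.698) and mitochondrial reads (0.841). The longest 10% of the genes took 8.681% to 9.203% of the counts on AL and 9.132% to 10.02% on DR. The part of RNA quality or of unspliced RNA in the trend was not tested.

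**Figure D4:**
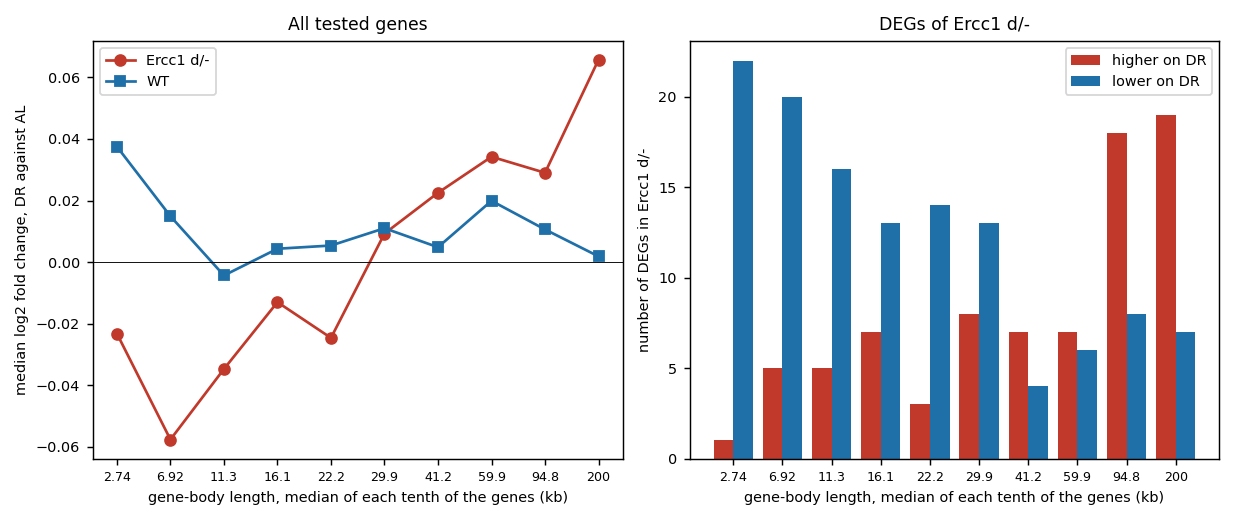
Left, median log2 fold change of DR against AL in 10 equal classes of the tested genes by gene-body length (horizontal axis, median length in kb) for Ercc1 d/- (red circles) and WT (blue squares). Right, number of Ercc1 d/- DEGs per class, with 1 raised and 22 lowered in the shortest and 19 raised and 7 lowered in the longest.

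The response of WT mice to the same restriction was compared in the same fit. DR changed 161 genes in WT, 43 upwards (0.348% of the tested genes) and 118 downwards (0.955%). That count fell to 46 without the WT sample 018, 58 without 020, 67 without 017, 75 without 028 and 90 without 021. Sample 018 was the only female used in the WT AL group, which without it held males only. Of the 203 Ercc1 d/- DEGs 26 were also WT DEGs in the same direction, 12.8% of the Ercc1 d/- list and 16.1% of the WT list. The 19 shared lowered genes held H2-Aa, H2-Ab1, H2-Eb1, B2m, C1qb, Fcrl2, Lcp1, Cx3cl1, Tmem176b, Pcolce and Frzb, and the 7 shared raised genes held Clk1, Slc24a4, Pde4d and Avil. The log2 fold changes of H2-Eb1 were -1.70 in Ercc1 d/- and -2.18 in WT, and those of Slc24a4 were 1.91 and 1.62. The WT value had the same sign for 165 of the 203 DEGs (81.3%) and for 59% of all tested genes. Lgals3 alone was a DEG of opposite direction. Some list medians were close in Ercc1 d/- and WT, at 0.274 and 0.255 for the citric acid cycle and 0.178 and 0.171 for the nuclear respiratory chain. Brown fat markers had 0.494 and 0.509, and type I interferon-stimulated genes -0.475 and -0.614. MHC class II genes had -1.44 and -2.18, with 6 lowered DEGs in WT. Other medians differed in sign, at 0.489 and -0.0659 for glucocorticoid-responsive genes and -0.136 and 0.119 for NRF2 targets and antioxidant enzymes.

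Whether the response to DR differed between the genotypes was tested as an interaction. It passed for 12 genes (0.0971% of those tested), 6 of them Ercc1 d/- DEGs, and 1076 genes had an unadjusted p under 0.05. Spp1 fell by 2.90 in Ercc1 d/- mice, while in WT mice it read 3.88, 6.91, 6.84 and 2.28 on AL and 10.7, 11.6, 5.21, 7.19 and 12.2 on DR (log2 fold change 0.97, adjusted p = 0.321). The 2 responses differed by -3.87 on the log2 scale (SE 0.51, adjusted p = 0.000651), and the highest WT value, 12.2, lay below the lowest Ercc1 d/- value, 12.3, which was a DR sample. Lgals3 fell in Ercc1 d/- mice and rose in WT mice, which had 45.6 to 72.6 on AL and 87.2 to 151 on DR (log2 fold change 0.99, adjusted p = 0.0028), and the DR ranges of the genotypes overlapped (interaction -1.84, SE 0.25, adjusted p = 0.000651).

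Timp1 and Mgp fell on DR in Ercc1 d/- and were not DEGs in WT. Mgp was 4902 to 5125 on AL and 4520 to 5598 on DR in WT (interaction -0.79, adjusted p = 0.0343). For Timp1 the interaction was -1.60 (SE 0.30, adjusted p = 0.0343). Cgnl1 and Garre1, which rose in Ercc1 d/-, had WT log2 fold changes of -0.29 and -0.16 (interactions 1.03 and 0.92). For Plvap, which forms the diaphragms of endothelial pores, Gm830, the collagen VI chain gene Col6a6, and the interferon-responsive genes Gbp4 and Nlrc5, the WT change was downwards and the Ercc1 d/- change was not called. Celf4, an RNA-binding protein, rose in WT but not in Ercc1 d/-. Only Lgals3 passed in each of 27 alternatives, and Spp1 passed in 26. The remaining 10 lost their call in 5 to 20 of up to 27. The count of 12 fell to 2 without sample 004, and it was 4 without 013 or 014, 5 without 005 or 022, and 7 without 016. Among the WT libraries it was 3 without 018, the only WT AL female used, 3 without 021, 4 without 017 and 6 without 020.

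**Figure D5:**
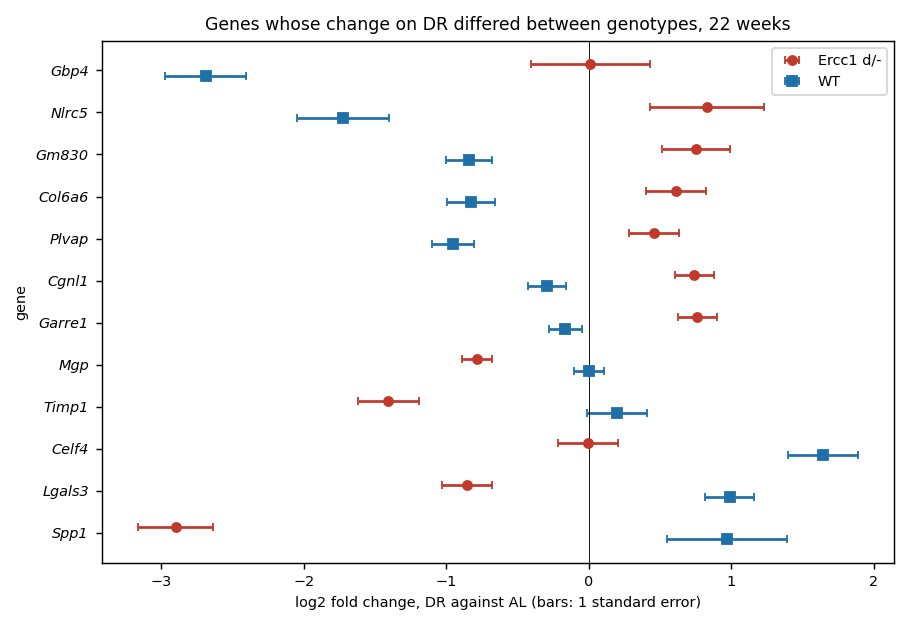
Log2 fold change of DR against AL at 22 weeks in Ercc1 d/- (red circles) and WT (blue squares) for the 12 genes whose response differed between the genotypes, with bars of 1 standard error. Spp1 sits at -2.90 and 0.97, and Lgals3 at -0.85 and 0.99.

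Levels before restriction give a scale for these changes. The 5 Ercc1 d/- mice of 6 weeks are set beside the same AL mice of 22 weeks, so that a high AL sample enters both contrasts, and no overlap of the contrasts was computed. Spp1 was 3.13 to 22.7 at 6 weeks, against 143 to 252 at 22 weeks on AL and 12.3 to 45.6 on DR. Mmp3 was 18.8 to 27 at 6 weeks, lower than on either diet at 22 weeks, and Lgals3 was 64.2 to 85.9. In these genes the DR mice lay between the young mice and the old AL mice by their means. Mgp (6580 to 8794 at 6 weeks) and Col8a1 (69.8 to 115) in the young overlapped the DR range and not the AL range of 22 weeks, while C1qa (109 to 345) overlapped both. Loxl1 was lowered by DR but had been higher in the young, at 1395 to 2613 against 1052 to 1496 on AL. Among the raised genes Fbxo32 was 371 to 622 at 6 weeks, with a mean between those of the 2 diets.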

How the data were processed

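The authors deposited raw counts, as whole numbers, of each gene in each sample. Per the labels and the methods, reads were aligned to GRCm39 with STAR 2.7.10a, deduplicated by UMI-tools 1.1.2 and counted over whole gene bodies with HTSeq 2.0.2, from a NEBNext Ultra II Directional library of each mouse. The strand setting of the counting is not given in the sources used here. Of 56748 genes, 12353 were tested, which had over 10 counts in more than 10 of the 28 samples, and 5 lines without a gene were kept out. Sample 003 (WT, AL) was left out, as in the study's methods. Diet effects came from edgeR 4.0.16 (TMM, robust quasi-likelihood F test, R 4.3.3) on 18 samples of 22 weeks with group and sex, with Benjamini-Hochberg adjustment. Library measures were set side by side with exact permutation tests (two-sided). Named genes were 15 DEGs per direction by smallest p, the 10 with the largest change and no overlap, list members, 10 interaction genes, genes that check labels and genes the study names. Cst3, the tubulins, Celf4, the genes of RNA processing, chromatin and translation, and the genes of the closing observations are not covered by this rule and were picked with their values in view. All members and lists were chosen with earlier results of these data known. On simulated counts with 12353 genes, edgeR called 26 of 67 genes changed 1.5-fold, 52 of 67 changed 2-fold and 60 of 66 changed 3-fold, beside 8 unchanged genes. Apart from these changes all simulated samples had the same mean profile, with the fitted dispersions of the 18 samples. Differences in sex, genotype or tissue content between libraries were left out, so these rates hold for that setting only. Some genes covered by the rule are not reported here. Each mouse is 1 sample, and depth limits scarce genes most.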

Additional observations from a re-analysis of the deposited data

Results flagged for a closer look

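In 26 of 286 sets of 4 or 5 samples that were examined, 1 sample lay further from the rest than the 95% limit of Dixon's test allows, and chance alone gives about 1 in 20. Among the lowered genes these were Mmp3 in the AL sample 013 (200.9 normalised counts), Bgn in AL 005 (23890), Serpine2 in DR 016 (3114), Cxcl12 in AL 013 (622.3), Tuba1c in AL 004 (209.2) and Scd2 in AL 004 (583.5). Among the raised genes they were Tsc1 in AL 013 (187) and in DR 029 (236.3), Dapk1 in DR 016 (295.1), Gm12098 in DR 014 (78.71), Setd2 in DR 006 (348.3), Itpr1 in AL 013 (418.6) and Ccng2 in AL 026 (79.63). Genes that were not DEGs gave Dbp in DR 022 (388.7), Idi1 in DR 029 (26.67), Lep in DR 006 (2.353), Acta2 in DR 006 (27220), Nlrc5 in DR 022 (38.19) and Celf4 in DR 029 (97.17).

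Among library measures and marker sums, sample 006 had an ambiguous read share of 1.653%, the lowest of the DR group, and a red cell marker sum of 3247. Sample 013 stood apart with 3309 for red cells and 887.3 for skeletal muscle. Sample 016 stood apart with 2339 for macrophages, 136.7 for B cells and 2471 for serous cavity macrophages.

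The test of the interaction found 12 genes whose change on DR differed between Ercc1 d/- and WT mice, given as the Ercc1 d/- minus the WT log2 fold change. The difference was -3.87 for Spp1, -1.84 for Lgals3, -1.60 for Timp1, -0.79 for Mgp and -1.65 for Celf4. It was 1.41 for Plvap, 1.60 for Gm830, 1.03 for Cgnl1, 1.44 for Col6a6, 2.699 for Gbp4, 0.92 for Garre1 and 2.56 for Nlrc5. Gbp4 and Nlrc5 were scarce and uneven within groups, with SDs of 92.24 and 15.55 around WT AL means of 83.26 and 19.56.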

How the results depend on the processing

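The 203 Ercc1 d/- DEGs became 344 with DESeq2 (164 higher, 180 lower, 7 adjusted p-values missing), 132 after thinning all libraries to the lowest total, 101 with sample 003 added, 91 with only the 9 Ercc1 d/- samples in the fit, 45 in females alone and 20 when tested against the 1.2-fold change itself. Without 1 library each, they ran from 78 to 270. The 161 WT DEGs became 310 without the filter on low counts, 103 with sample 003, 66 with all 28 samples in the fit, 55 without the sex term, 45 after thinning and 36 against the 1.2-fold change, and ran from 46 to 204 without 1 library each. The 12 interaction genes became 42 with DESeq2, 41 without the filter, 5 with all 28 samples, 3 with sample 003, 3 after thinning and 2 without the sex term, with 2 to 17 on leaving out 1 library. The count of 0 for the interaction of diet and sex became 19 with DESeq2 and 82 without the filter, and 0 to 4 without 1 library. Apart from thinning, which lowers depth, and the smaller sets of samples, the causes were not tested.

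Of 94 named DEGs 30 were called under each alternative run for them (at most 19), none changed sign, and 64 lost their call at least once. The upper adjusted p-values given beside omitted mice cover those omissions only. Thinning gave 0.423 for Psrc1 and 0.209 for Fcer1g, and the fit without the sex term 0.179 for H2-K1. Some DEGs kept on each omission lost their call elsewhere, among them Efemp2 and Ctsc (0.107 each after thinning), C1qc (0.0897 with all 28 samples) and Gpc3 (0.0564 without the sex term). RLE size factors shifted the median of all genes by 0.00496 on the log2 scale and gave 198 DEGs. Of 624 list medians 16 moved by more than the spread between samples. Without 006, 013 and 016 the Spearman correlation of the log2 fold change with gene-body length was 0.0682 across genes, a choice made after the values were seen. No paired analysis was possible because each mouse gave 1 sample and the groups share no replicate numbers. Scarce genes, such as Lep with 0 counts in most DR samples, are limited by depth.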

Other observations

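Receptors for cytokines were among the lowered DEGs of the Ercc1 d/- aortic arch that belonged to no list. Ifnar2, a chain of the type I interferon receptor, read 99.2, 97.7, 112 and 114 on AL and 82.7, 57.3, 84.7, 59.97 and 68.6 on DR (log2 fold change -0.60, adjusted p = 0.0467). Ifngr2, a chain of the interferon gamma receptor, read 230, 222, 195 and 246 against 146, 189.6, 148, 149 and 133 (log2 fold change -0.51, adjusted p = 0.0437). Every DR mouse was below every AL mouse in both. Tnfrsf1b, a receptor of tumour necrosis factor, fell with a log2 fold change of -0.71 and without overlap, and Lepr, the leptin receptor, with one of -0.75 and with overlap of the DR male 006. P2ry6, a receptor for extracellular nucleotides on macrophages and vascular cells, fell with a log2 fold change of -0.9995, beside -0.67 in WT (adjusted p = 0.027). Ifitm3, an interferon-induced membrane protein, read 775, 772, 806 and 786 on AL and 496, 691, 567, 475 and 408 on DR (log2 fold change -0.54, adjusted p = 0.0157).

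Stromal and growth factor genes fell beside them. Sncg, which encodes gamma-synuclein, read 637, 646, 1038 and 619.6 on AL and 370, 364, 391, 403 and 356 on DR (log2 fold change -0.95, adjusted p = 0.00809), with the DR mice nearly level and the AL male 013 far above the rest. Thy1, a surface protein of fibroblasts, fell with a log2 fold change of -0.86, Mdk, the growth factor midkine, with one of -1.29 and Eng, a co-receptor for TGF-beta on endothelium, with one of -0.40. Among the raised DEGs Mcam, an adhesion molecule of smooth muscle and endothelium, had 1775, 1610, 2040 and 1951 on AL and 2472, 2433, 2454, 2445 and 2418 on DR (log2 fold change 0.41, adjusted p = 0.0376), so that the 5 DR mice differed by little. All of these genes were chosen after their values were seen. Their calls were not recomputed under the alternatives.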
